A study of Mus musculus with 4 samples.

Results

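IN5 is a subtype of inhibitory neuron that the authors named in single-nucleus RNA sequencing of the developing mouse superior colliculus. Its members were the nuclei that the deposited table of nuclei labels IN5. They numbered 324 of 9724 nuclei in all, and of 3459 inhibitory neuron nuclei, which the table divides into 12 subtypes. The mice were C57BL/6J with no named mutation or treatment, taken on embryonic day 19 (E19) or on postnatal day 4, 8 or 21 (P4, P8 and P21). A stage had a single library, made from tissue pooled over several animals. Stages were thus compared library with library, without replicates, and no test between them was possible. The subtype was drawn from the same RNA counts that describe it here. Its differences from other subtypes are therefore given as values in each of the 4 libraries, with no test.

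The superior colliculus is a layered midbrain structure whose superficial layers receive axons from the retina, while its deeper layers combine several senses and help to direct movements of the eyes and head. Inhibitory neurons there make GABA with the enzymes encoded by Gad1 and Gad2 and load it into vesicles with the transporter encoded by Slc32a1. Midbrain inhibitory neurons are specified by factors such as Gata2, Gata3 and Tal1, unlike many of those in the forebrain, which depend on Dlx genes.

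The 4 libraries, from the youngest to the oldest, held 60, 62, 121 and 81 IN5 nuclei, and values below keep that order of stages. Their summed counts of unique molecular identifiers (UMIs, each standing for 1 captured RNA molecule) were 356303, 455661, 1161833 and 1143165. The median IN5 nucleus held 5640, 7310.5, 9146 and 13287 UMIs, so depth differed with stage. In the other inhibitory neurons the medians were 6095, 7793, 9324 and 14126. The share of IN5 nuclei with a UMI of Xist, the RNA of the inactive X chromosome, was 3.33% at E19 and 37.1%, 45.5% and 61.7% at the later stages. A UMI of a Y-linked gene was found in 75%, 64.5%, 63.6% and 49.4% of IN5 nuclei, a course opposite to that of Xist. The sexes of the pooled animals are not given in the sources used here. Stage differences thus coincided with differences in depth and in sex-linked RNA, and the part of these in any stage difference was not tested. A total of 9 barcodes occurred in 2 libraries each, and 0 of the IN5 nuclei carried one. Levels are counts per 1000000 UMIs (CPM) of the summed profile of a population in a library, and log2 ratios have 5 CPM added to both values.

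The label of an inhibitory neuron was checked against its markers. A UMI of Gad1 or Gad2 was found in 98.3%, 98.4%, 98.3% and 100% of IN5 nuclei. In astrocytes, which should lack both genes, the shares were 25.5%, 26.5%, 31.3% and 27.2%, at median depths of 4697, 4329, 5124 and 5525 UMIs. Gad2 stood at 488, 448, 413 and 376 CPM in IN5, against 561, 494, 448 and 365 CPM in the other inhibitory neurons. Slc32a1 stood at 81.4, 81.2, 56.8 and 80.5 CPM in IN5, so the genes of GABA synthesis and loading were present at each stage.

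Transporters of excitatory neurons were found in IN5 nuclei at shares near those in astrocytes, which should lack them. A UMI of Slc17a6 or Slc17a7, the vesicular glutamate transporters, was found in 21.7%, 30.6%, 17.4% and 16.05% of IN5 nuclei, in 24.01%, 25.7%, 17.1% and 10.9% of the other inhibitory neurons and in 25%, 26.01%, 15.5% and 13.9% of astrocytes. With every nucleus thinned to 2000 UMIs, which left none out, the IN5 shares were 10.0%, 6.45%, 7.44% and 3.70%, and those of astrocytes 13.8%, 10.8%, 7.73% and 4.88%. The 4 glutamatergic markers together (Slc17a6, Slc17a7, Slc17a8 and Tbr1) stood at 58.9, 50.5, 44.8 and 21.9 CPM in IN5, at 48.7, 44.2, 25.5 and 12.2 CPM in the other inhibitory neurons and at 179.7 to 289 CPM in excitatory neurons. Slc17a8, a vesicular glutamate transporter that some non-glutamatergic neurons also express, stood at 19.6, 2.19, 24.1 and 9.62 CPM in IN5 and at no more than 5.24 CPM in the others, while Slc17a6 stood at 39.3, 46.1, 20.7 and 12.2 CPM against 46.7, 38.3, 19.7 and 7.87 CPM. The part of these markers in the IN5 values was not tested, other than by leaving out the nuclei with a Slc17a6 or Slc17a7 UMI, which kept 12 of the 15 higher and 69 of the 79 lower genes described below. Slc6a5, the glycine transporter of neurons that release glycine, had 0 UMIs in IN5 in each library, where 3 counts would be 8.42, 6.58, 2.58 and 2.62 CPM. The other inhibitory neurons stood under these limits too, at 6.60, 2.87, 0.202 and 1.48 CPM, so no difference was detectable at this depth. Of 16 forebrain inhibitory factors, including Dlx genes, 0 reached a mean of 20 CPM in IN5 or in the other inhibitory neurons. The 3 cholinergic markers together had at most 1 UMI per library, and the 6 dopaminergic and serotonergic markers at most 3.

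IN5 made up 6.72% of inhibitory neuron nuclei at E19, with a 95% Clopper-Pearson interval of 5.17 to 8.56%. At P4 the share was 8.40% (6.50 to 10.6%). At P8 it reached 11.1% (9.31 to 13.1%), and at P21 it was 10.9% (8.79 to 13.4%). The intervals at P8 and P21 lay above the one at E19, and those of neighbouring stages overlapped. Intervals here and below cover counting error only, and each stage was 1 capture of nuclei.

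The most marked excess of IN5 over the other inhibitory neurons was in Glra1, which encodes the alpha 1 subunit of the glycine receptor, a chloride channel opened by glycine (mouse chromosome 11, 55514238 to 55608198 on the minus strand of GRCm38). It stood at 138, 199.7, 257 and 241 CPM in IN5 and at 16.4, 14.8, 17.5 and 34.3 CPM in the other inhibitory neurons together. The ratios, with 95% counting intervals, were 8.38 (5.80 to 11.98), 13.5 (9.93 to 18.3), 14.7 (12.1 to 17.8) and 7.05 (5.997 to 8.28). IN5 was the highest of the 12 subtypes in every library, and IN10 came next, at 98.4, 88.7, 67.2 and 126 CPM. At E19 the intervals of IN5 (102 to 182 CPM) and IN10 (60.1 to 152 CPM) overlapped, while at the later stages they did not. A Glra1 UMI was found in 31.7%, 50.0%, 48.8% and 77.8% of IN5 nuclei, against 6.72%, 7.69%, 10.4% and 23.4% of the others. After thinning to 2000 UMIs the shares were 16.7%, 27.4%, 31.4% and 44.4% in IN5 and 2.16%, 2.51%, 2.48% and 4.86% in the others. In astrocytes, unthinned, a Glra1 UMI was found in 1.02%, 1.35%, 0.858% and 3.48% of nuclei.

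Olfm3, which encodes a secreted olfactomedin glycoprotein (chromosome 3, 114904078 to 115125722), stood at 1342, 1385, 1147 and 1213 CPM in IN5. In the other inhibitory neurons it stood at 198, 240.2, 247 and 267 CPM. The ratios were 6.78, 5.76, 4.64 and 4.55. IN5 was again the highest subtype in every library, and IN7 stood at 1092, 773, 975 and 947 CPM. At E19 the intervals of IN5 (1224 to 1467 CPM) and IN7 (949 to 1250 CPM) overlapped. Ptprm, a receptor tyrosine phosphatase of cell contacts (chromosome 17, 66666947 to 67354457), was high in the same pair of subtypes. It stood at 1516, 1203, 1638 and 1386 CPM in IN5 and at 1217, 1526, 1386 and 1303 CPM in IN7, which was the higher of the pair at P4.

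**Figure D1:**
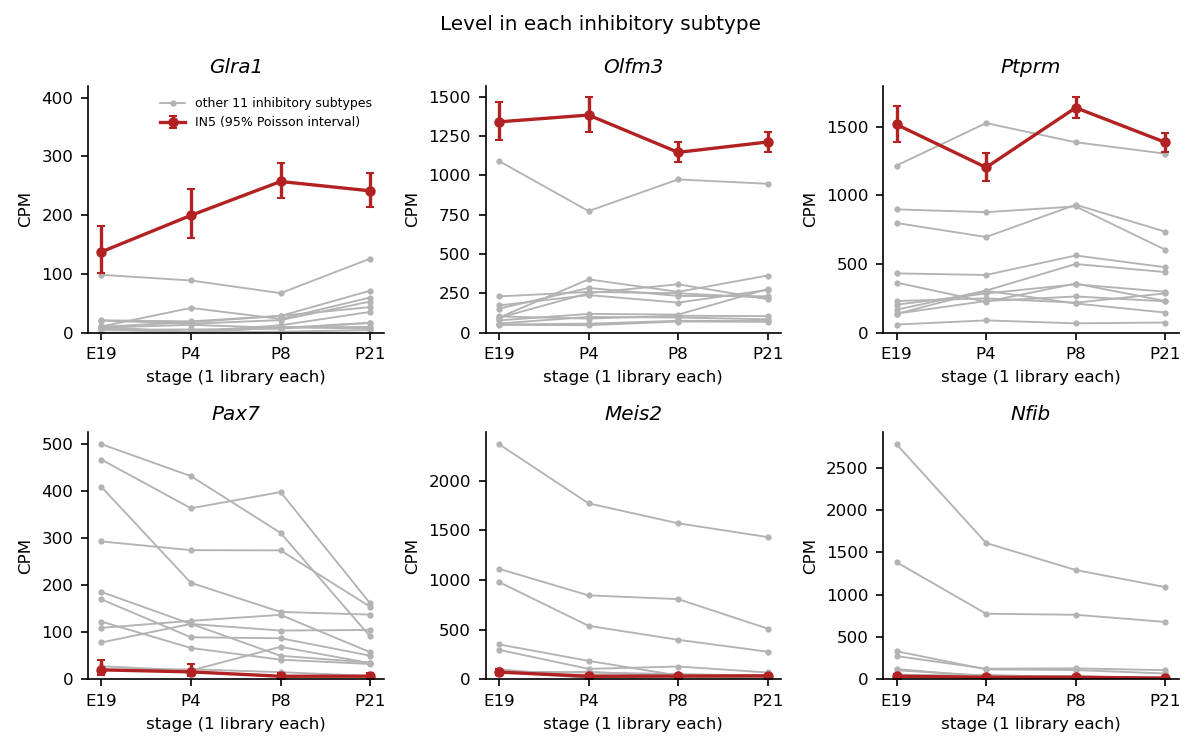
Level in CPM (vertical axis) of 6 genes at each stage (horizontal axis, 1 library each) in IN5 (red, with 95% Poisson intervals) and in each of the other 11 inhibitory subtypes (grey). Glra1 and Olfm3 were highest in IN5 at every stage, with intervals at E19 that overlapped those of IN10 and IN7, and Ptprm was near the level of IN7. Pax7 was low in IN5, with too few UMIs to order it against IN10.

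IN5 shared most of its high genes with other subtypes. Of 7293 genes with a mean of 20 CPM or more in IN5 or in the others, 15 (0.206%) had a log2 ratio of 1 or more in every library, and 79 (1.08%) had one of -1 or less. Of the 15, IN5 was the highest subtype in all libraries for 4: Glra1, Olfm3 and the uncharacterised transcripts Gm12239 and Gm10754. Intervals overlapped those of another subtype at E19 for Glra1 and Olfm3, and at P4 for Gm12239. Gm12239 stood at 101, 72.4, 86.1 and 158 CPM against 15.9, 24.8, 18.8 and 41.3 CPM in the others. Its annotation overlaps Nmur2 on the opposite strand, and the sources used here do not say whether counting used strand.

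Efna5, the ephrin-A5 ligand known for guiding retinal axons to their map positions in the colliculus, stood at 1689.6, 1218, 928 and 876 CPM in IN5 and at 619, 418, 408 and 272 CPM in the others. Fat4, a giant atypical cadherin, stood at 859, 577, 576 and 255 CPM against 145, 123, 191 and 113 CPM. Efna5 was about as high in IN7, at 1617, 1324, 1252 and 912 CPM. Fat4 was higher in IN7 than in IN5 in each library, at 889, 782, 717 and 350.1 CPM, with intervals that overlapped at E19 alone.

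Adarb2, which encodes a brain member of the RNA-editing deaminase family with no known editing activity, stood at 6480.4, 4712, 4682 and 3678 CPM in IN5 and at 2200.5, 2293, 1960.4 and 1565 CPM in the others. It was higher still in IN12, at 9865 to 11583 CPM, and in IN7, at 4055 to 10561 CPM. Nkain3, a membrane protein that interacts with the sodium pump, differed by log2 ratios of 1.04 to 1.13, the narrowest range among the 12 leading genes of 100 CPM or more. IN7 was above IN5 in Nkain3 in each library, at 1880 to 3692 CPM, where IN5 had 1371 to 2073 CPM. IN5 nuclei of the authors' cluster 3, described below, had Nkain3 log2 ratios of 0.07 to 0.50, and those of cluster 8 had 1.64 to 1.88. With the other 11 subtypes weighted alike in place of pooled nuclei, the mean log2 ratio of Adarb2 was 0.84 in place of 1.27, that of Nkain3 0.996 in place of 1.08, and 11 of the 15 higher genes were still called. Flrt2 (a ligand of Unc5 guidance receptors), Galnt14 (a glycosylation enzyme), Tln2 (talin 2, which links integrins to actin) and Plxdc2 (a transmembrane protein) completed the 12, with smallest log2 ratios of 0.98, 0.93, 0.90 and 0.89. Flrt2, Tln2 and Plxdc2 were about as high in IN7, at 320 to 577, 478 to 1186 and 551 to 780 CPM. IN5 had 289 to 362, 513 to 1159 and 581 to 741 CPM. Galnt14 stood at 376 to 507 CPM in IN5 and at 301 to 366 CPM in IN7. At P21 it was higher in IN6 (428 CPM) and IN12 (387 CPM) than in IN5 (376 CPM). With the other subtypes weighted alike, its mean log2 ratio was 0.96 in place of 1.14.

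More genes were low in IN5 than high, and most of the lowest were about as low in some other subtype. Slit3, a secreted repellent of growing axons, stood at 5.61, 6.58, 8.61 and 2.62 CPM in IN5 and at 103, 182, 122 and 97.1 CPM in the other inhibitory neurons. It was found in 3.33%, 4.84%, 7.44% and 2.47% of IN5 nuclei and in 6.63%, 5.38%, 3.86% and 4.53% of astrocytes. Slit3 was about as low in IN7, at 15.6, 4.20, 13.2 and 12.9 CPM, and in IN3, at 16.6, 3.16, 16.98 and 4.52 CPM, while IN8 stood at 121 to 343 CPM. Pax7, a paired-box factor of the dorsal midbrain (chromosome 4, 139737062 to 139833528), stood at 19.6, 15.4, 6.02 and 6.12 CPM against 132, 105, 124 and 61.3 CPM. IN5 had the lowest Pax7 value of the 12 subtypes in each library, from 7 UMIs in each. IN10 stood at 19.7, 20.9, 14.7 and 6.63 CPM, from 4, 4, 9 and 3 UMIs. The intervals of IN5 and IN10 overlapped in each library, and these counts were too few to order them. At P4, IN1 lay between them, at 18.3 CPM.

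Other transcription factors were also low. Nfib, a nuclear factor I protein that acts in neuron and glia differentiation, stood at 33.7, 21.9, 22.4 and 10.5 CPM against 421, 238, 192 and 194 CPM. The high values lay in IN4, at 1089 to 2781 CPM, and IN8, at 677 to 1384 CPM. Low Nfib was common among the subtypes, with 13.4 to 42.5 CPM in IN2, 12.04 to 28.4 CPM in IN3 and 8.81 to 37.6 CPM in IN11. Meis2, a TALE homeodomain factor, stood at 70.2, 28.5, 30.1 and 33.2 CPM against 423, 269, 401 and 364 CPM. It reached 1433 to 2370.3 CPM in IN3 and was about as low as in IN5 in IN7, at 18.7 to 72.8 CPM. Zfp536, a zinc finger repressor of neuronal differentiation, had log2 ratios of -4.23 to -2.58. The 8 lowest were completed by Tmem132c and Tmem132d, which encode cell surface proteins of little known function (log2 ratios of -4.18 to -2.96 and -4.49 to -3.12), and Adcy2, an adenylyl cyclase (-3.37 to -2.32). IN7 was again about as low as IN5, at 4.20 to 14.1 CPM for Zfp536, where IN5 had 4.39 to 25.8 CPM, and at 0 to 15.4 CPM for Tmem132c, where IN5 had 5.61 to 24.1 CPM. For Tmem132d IN7 had 27.6 to 46.8 CPM and IN5 16.8 to 61.97 CPM, and for Adcy2 8.41 to 40.98 and 11.2 to 48.99 CPM.

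**Figure D2:**
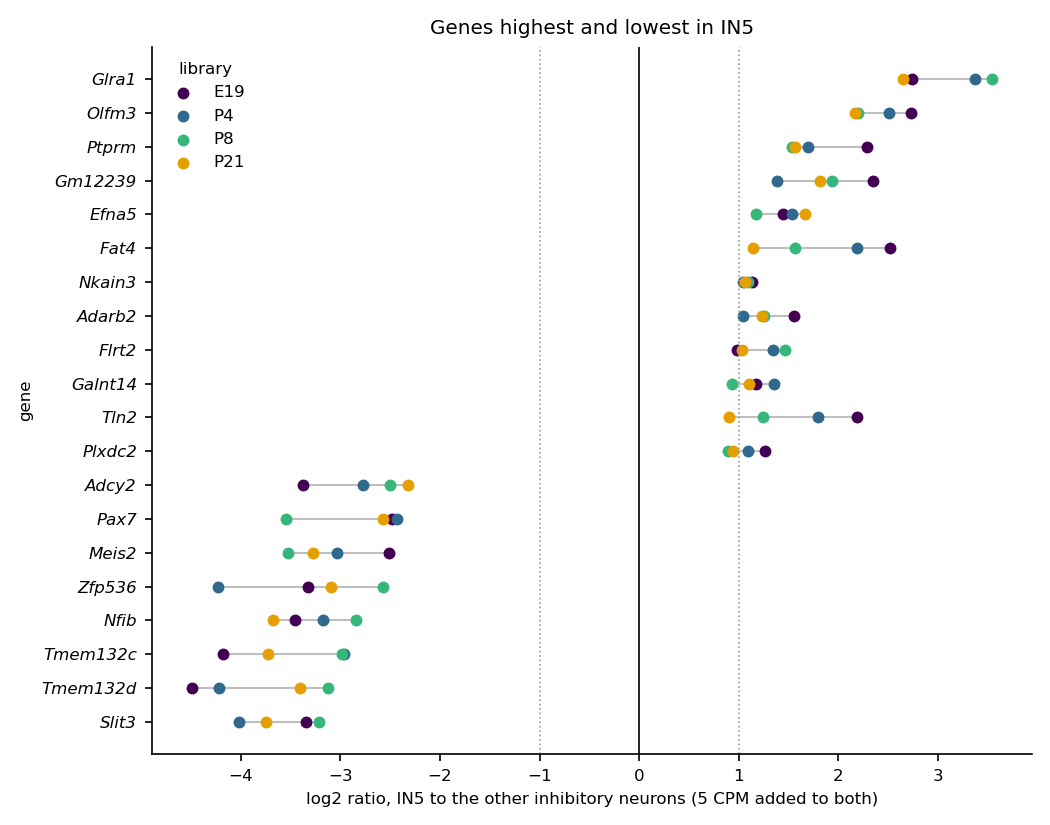
Log2 ratio of IN5 to the other inhibitory neurons (horizontal axis, 5 CPM added to both) for the 12 highest and 8 lowest genes (rows), with 1 point for each of the 4 libraries. Glra1 lay at 2.65 to 3.54 and Slit3 at -4.02 to -3.22. The genes were ranked by their smallest difference over the libraries, so the choice itself puts the points of a gene on one side of 0.

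Of the 79 lower genes, IN5 had the lowest value of the 12 subtypes in all libraries for 5: Pax7, Tspan5, Nrg1, Fstl4 and Sema5a. For Pax7 the UMIs were too few to order IN5 and IN10. Nrg1, the ligand neuregulin 1 of ErbB receptors, stood at 780.2, 1130.2, 1603 and 1079 CPM in IN5 against 3684, 4518, 5155 and 4509 CPM in the others. Sema5a, a transmembrane semaphorin of axon guidance, averaged 32.6 CPM against 178 CPM. Tspan5, a tetraspanin, averaged 163 CPM against 544 CPM. The related ligand gene Nrg3 lay the other way, at 7631, 7334, 7970.2 and 6424 CPM in IN5 against 4729, 5256, 4855 and 4400.3 CPM, which stayed under a log2 ratio of 1.

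Gene groups were read against the background above, 0.206% of all genes higher and 1.08% lower, with a median over all genes of -0.03. A gene counts as measured where its mean reached 20 CPM in IN5 or in the others. In a list of 45 patterning and homeobox factors, 23 were measured, 2 were higher (Irx2 and Dmbx1) and 3 lower (Pax7, Pax3 and Meis2), and the median log2 ratio was 0.26. Dmbx1, a homeobox gene of the embryonic midbrain, stood at 118, 85.6, 68 and 34.99 CPM against 11.6, 9.27, 16.5 and 8.76 CPM. Irx2, an Iroquois homeobox gene, stood at 84.2, 52.7, 35.3 and 33.2 CPM against 19.3, 14.5, 12.2 and 7.87 CPM. IN5 ranked 2 or 3 among the 12 subtypes for both.

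Of 15 selector factors of midbrain inhibitory neurons, 8 were measured, with 0 higher and 0 lower past the fold in every library. At the background shares, so short a list would seldom hold such a gene. In each library 5 of the 8 were below the others and 2 above, with a median log2 ratio of -0.38. Over all 7293 genes, 1192 were below and 719 above in each library. Tal1 stood at 67.4, 83.4, 47.3 and 39.4 CPM in IN5 against 53.9, 48.05, 47.99 and 37.1 CPM. Sox14, which marks some diencephalic and midbrain inhibitory neurons, stood at 11.2, 17.6, 18.1 and 10.5 CPM against 53.2, 37.3, 56.2 and 27.7 CPM. Sox2 and Lmo1 were above the others in each library, by smallest log2 ratios of 0.77 and 0.39. Of 34 measured among 60 other neuronal transcription factors, 0 were higher and 6 lower: Tfap2b, Ebf1, Ebf3, Nfib, Nfix and Zfp536, with a list median of -0.25. Sox5, a Sox family factor, stood at 671, 478, 430.4 and 476 CPM against 207, 189, 237 and 208 CPM.

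Of 11 measured nuclear receptors among 19, 0 were higher and 0 lower in every library, with a median of 0.02. Nr3c2, the mineralocorticoid receptor, was highest in IN5 among the 12 subtypes in each library, at 152, 255, 405 and 541 CPM against 48.5, 61.5, 89.5 and 342 CPM. The gap narrowed at P21, where the log2 ratio was 0.65.

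Among receptors for inhibitory transmitters, Glra1 stood alone past the fold. Of 20 measured among 25 receptor and chloride transporter genes, 1 was higher (Glra1) and 0 were lower, with a median of -0.01. Gabrb2, which encodes a beta subunit of the GABA-A receptor, stood at 370.5, 274, 303 and 434 CPM against 221, 213, 178 and 272 CPM. Gabra3, an alpha subunit gene, stood lower, at 92.6, 119, 98.98 and 97.1 CPM against 173, 151, 154 and 142 CPM. Glra2 and Glra3, which encode further glycine receptor alpha subunits, had log2 ratios on both sides of 0.

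Of 22 measured glutamate receptor genes, 0 were higher and 1 was lower (Grik3, a kainate receptor subunit), with a median of 0.04. IN5 ranked 7 to 9 of the 12 subtypes for Grik3, counted from the highest. Grm7, a presynaptic metabotropic receptor, stood at 3887, 3981, 5218 and 4172 CPM in IN5, the highest of the 12 subtypes in each library, against 1428, 1622, 2293 and 2365 CPM. Of 19 measured receptors for modulators, 0 were higher and 4 lower: Htr1f, Htr2a, Htr2c and Adra1a, which are receptors for serotonin and noradrenaline. The median of that list was -0.75. For Htr2c, IN5 ranked 6 to 8 of the 12 subtypes. Adra1a stood at 5.61, 8.78, 9.47 and 6.998 CPM against 81.2, 67.4, 59.7 and 43.7 CPM. Oprm1, the mu opioid receptor, stood at 56.1, 96.6, 104 and 149 CPM against 31.8, 44.3, 57.97 and 41.6 CPM.

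Few peptide and calcium-binding markers that are used to divide inhibitory neurons were measured. Of 29 genes in the peptide list 7 were measured, with 0 higher, 1 lower and a median of -0.96. The lower gene was Nxph1, which encodes the secreted neurexin ligand neurexophilin 1, at 342, 498, 655 and 399 CPM against 2360.3, 1836, 1847 and 1132 CPM. IN5 was not extreme in Nxph1: it ranked 6 to 7 of the 12 subtypes, counted from the highest. IN7 was lower, at 35.1 to 72.8 CPM. The log2 ratios were -1.92 to -0.80 in IN5 nuclei of cluster 3, described below, and -5.35 to -4.11 in those of cluster 8. Sst, the peptide somatostatin, stood at 36.5, 15.4, 18.9 and 2.62 CPM against 243, 63.4, 34.2 and 22.9 CPM. Of 21 calcium-binding proteins and enzymes 7 were measured, with 0 higher, 1 lower (Nos1, the neuronal nitric oxide synthase) and a median of -0.93. Nos1 stood at 0, 10.97, 7.75 and 16.6 CPM against 33.4, 40.5, 41.4 and 42.9 CPM. Pnoc, which encodes the peptide nociceptin, was above the others in each library, at 179.6, 65.8, 37.01 and 16.6 CPM against 87.8, 24.9, 18.05 and 12.7 CPM.

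Among channels, Kcnip1, Kcnh1, Trpc5 and Trpc7 were lower and 0 were higher, of 36 potassium channel genes and 36 sodium, calcium, HCN and TRP channel genes measured. Kcnip1, an auxiliary subunit of A-type potassium channels, stood at 168, 176, 178 and 92.7 CPM against 708, 695, 825 and 709 CPM. Among 52 measured axon guidance genes, 1 was higher (Efna5) and 4 were lower (Sema5a, Slit1, Slit3 and Dscaml1), with a median of 0.00. Ntng1, a netrin-related membrane protein, stood at 2032, 1683, 1968 and 1582 CPM against 724, 910.5, 964 and 550.2 CPM. Ncam2, a neural adhesion molecule, was highest in IN5 among the 12 subtypes in each library, at 3135, 2594, 2507 and 1798 CPM against 1237, 1431, 1374 and 962 CPM. Il1rapl2, a synapse organiser, stood lower, at 50.5, 138, 68.9 and 83.1 CPM against 610.2, 567, 965 and 808 CPM.

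IN5 nuclei came mainly from 2 of the clusters that the authors numbered over the whole data set. Cluster 3 held 173 of them, cluster 8 held 146, and 5 lay in cluster 4. Both main groups were present at every stage, with 28, 32, 73 and 40 nuclei in cluster 3 and 31, 29, 46 and 40 in cluster 8. Each cluster also held nuclei of other subtypes, among them 116 of IN11, 110 of IN12 and 64 of IN1 in cluster 3 and 210 of IN7 in cluster 8.

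Of 7366 genes measured in IN5 of the 2 clusters, 27 (0.367%) had a log2 ratio of 1 or more in cluster 3 in every library and 23 (0.312%) in cluster 8. These genes took part in the clustering, so the values are a description. Nxph1 led on the side of cluster 3, at 621, 848, 1001 and 646 CPM against 53.1, 101, 40.8 and 26.6 CPM. Grik1, a kainate receptor subunit, stood at 1544, 2169, 2516 and 1055 CPM against 472, 415, 199 and 48.7 CPM. Col25a1, a transmembrane collagen, stood at 1017, 1720.5, 2305 and 1233 CPM against 395, 227, 168 and 26.6 CPM. Edil3, Alcam, Ntrk3, Kctd8, Inpp4b, Tmtc2 and Grin3a made up the remaining leading genes of cluster 3.

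On the side of cluster 8, Nrp2, a receptor for class 3 semaphorins, stood at 548, 1019, 1125 and 478 CPM against 93.4, 139.9, 177 and 98.9 CPM in cluster 3. Adcy8, a calcium-stimulated adenylyl cyclase, stood at 1527, 1671, 1956 and 859 CPM against 269, 226, 367 and 234 CPM. Kcnip4, Thsd7b, Gm12239, Nkain3, Sipa1l2, Cpne4, Gpc6 and Ptprk made up the rest. Of these, Gm12239 and Nkain3 were also among the genes that set IN5 above the other inhibitory neurons. Gm12239 stood at 153, 126, 194 and 290.1 CPM in cluster 8 and 54.9, 28.8, 26.1 and 72.7 CPM in cluster 3.

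The genes that set IN5 apart from other inhibitory neurons were found in both clusters, at unequal levels. Glra1 stood at 126, 57.6, 67.3 and 129 CPM in cluster 3 and at 153, 372, 599.9 and 412 CPM in cluster 8, with smallest log2 ratios to the other inhibitory neurons of 1.66 and 2.89. Cluster 3 was thus below IN10 at P4 (88.7 CPM) and near it at P8 and P21 (67.2 and 126 CPM). Olfm3 stood at 1363, 803, 670.3 and 720.0 CPM in cluster 3 and 1356, 2101, 1987 and 1949 CPM in cluster 8. In cluster 3 it was below IN7 at P8 and P21 (975 and 947 CPM). Ptprm ranged over 1181 to 1600.2 CPM and 1237 to 1725 CPM. Of the 15 higher genes, 6 had a log2 ratio of 1 or more in every library in both clusters and 12 were above 0. Of the 79 lower genes, 44 had -1 or less in both, and 79 were below 0 in both.

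**Figure D3:**
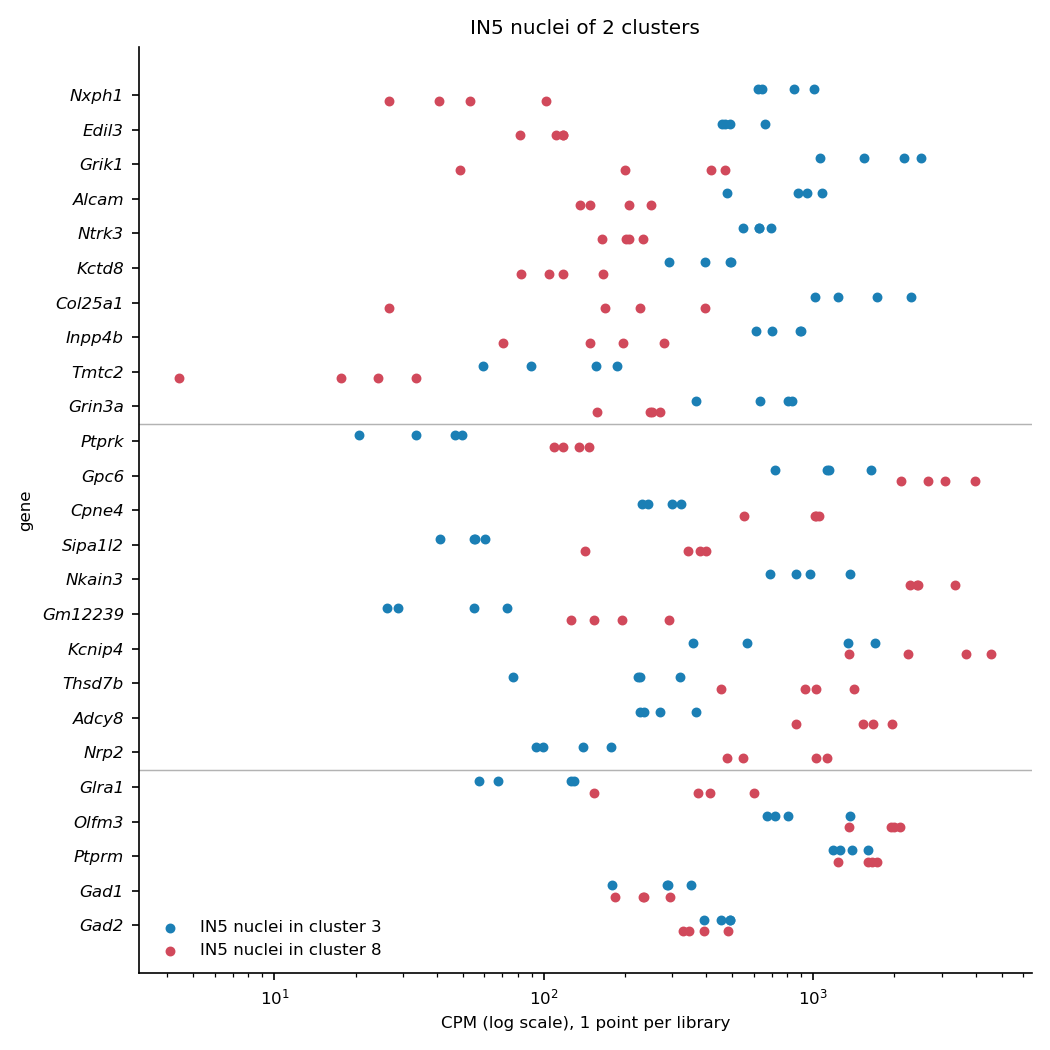
Level in CPM (horizontal log axis) in IN5 nuclei of cluster 3 and cluster 8, 1 point per library, for the 10 leading genes of each cluster and for Glra1, Olfm3, Ptprm, Gad1 and Gad2. Nxph1 and Nrp2 separated the clusters in all 4 libraries, while the points of Ptprm, Gad1 and Gad2 overlapped.

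Single nuclei were split in the same way. After thinning to 2000 UMIs, Nxph1 was found in 52.6% of IN5 nuclei in cluster 3 and 10.3% of those in cluster 8, and Nrp2 in 21.4% and 74.7%. Over all 324 nuclei, 23 held both, 85 held Nxph1 without Nrp2, 123 held Nrp2 without Nxph1 and 93 held neither at this depth. Glra1 was found in 15.0% of nuclei in cluster 3 and 51.4% in cluster 8.

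The IN5 nuclei of each cluster were then set beside the other subtypes of that cluster, with genes chosen by the smallest difference over libraries after the clusters had been seen. IN5 nuclei of cluster 3 stood above IN11 and IN12 in Col25a1 and in Foxp2, a forkhead factor of neuronal differentiation. Col25a1 stood at 34.1 to 87.2 CPM in IN11 and at 16.7 to 72.7 CPM in IN12. Foxp2 stood at 1044, 852, 1059 and 771 CPM in these IN5 nuclei, 68.2, 26.3, 21.3 and 22.01 CPM in IN11 and 119, 52.9, 34.4 and 12.5 CPM in IN12. Pax7 lay the other way, at 5.49, 16.5, 8.24 and 8.73 CPM in these IN5 nuclei against 293, 275, 274 and 154 CPM in IN11 and 409, 205, 143 and 137 CPM in IN12. Grik2, a kainate receptor subunit, stood at 4797, 4939, 5252 and 3479 CPM in these IN5 nuclei and at 358, 674, 379 and 429 CPM in IN12.

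IN5 nuclei of cluster 8 stood above IN7 in Glra1, which stood at 10.4, 42.03, 23.2 and 59.7 CPM in IN7. Foxp2 stood at 731, 894, 899.9 and 866 CPM in them and at 156, 71.5, 36.4 and 22.2 CPM in IN7. Utrn, which encodes the cytoskeletal protein utrophin, stood at 159, 169, 127 and 208 CPM against 5.20, 21.02, 5.51 and 15.2 CPM. They stood below IN7 in Meis1, a TALE homeodomain factor, at 147, 24.2, 24 and 35.4 CPM against 796, 949.9, 916 and 679 CPM.

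Over 7060 genes, the profile of IN5 correlated most with those of IN1 (mean Pearson r over 4 libraries 0.922), IN2 (0.919) and IN7 (0.914). These are correlations across genes within libraries, and the profiles share library and depth. With every subtype thinned to the same total, an alternative chosen after seeing the data, the order was IN7 (0.848), IN11 (0.838), IN1 (0.835) and IN2 (0.832). IN7 also led at a floor of 100 CPM, at 0.899. The order of the most alike subtypes therefore depended on the setting.

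Single genes separated IN5 from each of these subtypes. Against IN7, Col25a1 stood at 772, 1060.0, 1615 and 760.2 CPM in IN5 and at 88.4, 67.3, 115 and 21.1 CPM in IN7. The zinc finger gene Zfp385b stood at 289, 469.6, 522 and 394 CPM against 36.4, 29.4, 52.9 and 28.1 CPM. Against IN1, Fat4 differed by log2 ratios of 3.30 to 3.54 and Slit3 by -4.79 to -3.92. Against IN2, Adarb2 stood at 77.5, 91.7, 92.5 and 109 CPM in IN2, and log2 ratios were 5.01 to 6.30. Rxfp2, a relaxin family peptide receptor, stood at 77.5, 196, 225 and 62.5 CPM in IN2 and had 0, 0, 0 and 1 UMIs in IN5.

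Across stages, most listed genes of growing neurons were lower in older IN5 nuclei, while lists of channels and receptors gave unequal counts. Among genes of 20 CPM or more in the higher stage, 5.06% were higher at P4 than at E19 by a log2 ratio of 1 or more, called a rise here, and 4.83% were lower by as much, called a fall. The shares between P4 and P8 were 1.26% and 2.61%. Between P8 and P21 they were 4.65% and 4.64%, and over the whole span 11.3% and 14.4%. The split between P4 and P8 depended on scaling: rises were 32.6% of the genes past the fold with CPM, 61.2% with TMM factors and 52.3% with DESeq2 size factors, which moved the median gene from -0.08 to 0.08 and 0.03.

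A list of 25 genes of immature neurons showed the falls. Of 23 measured, 22 fell between E19 and P21, with a median of -2.91, where the same genes had a median of -2.87 in the other inhibitory neurons and all genes had -0.04 in IN5. Tubb2b, a beta-tubulin of growing neurons, stood at 996, 485, 198 and 2.62 CPM in IN5 and at 873, 433, 188 and 5.22 CPM in the others. Nnat, the imprinted gene neuronatin, stood at 1100.2, 500.4, 283 and 27.1 CPM, and Tmsb10, an actin-binding thymosin, at 477, 226, 137 and 13.1 CPM. These were the 3 largest falls between P8 and P21, and the other inhibitory neurons showed them too.

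Genes that rose included 14 of 37 measured potassium channel genes between E19 and P21, with 2 that fell. The list had a median of 0.52 in IN5 and 0.14 in the other inhibitory neurons. Kcna1, a delayed-rectifier channel of axons, stood at 2.81, 0, 2.58 and 56.9 CPM. Among 35 measured sodium, calcium, HCN and TRP channel genes, 7 rose and 7 fell, with a median of 0.22 in IN5 and 0.27 in the others. Of 22 measured glutamate receptor genes, 3 rose and 1 fell, with medians of 0.25 and 0.06. Among 20 measured GABA and glycine receptor genes, 7 rose and 1 fell, with a median of 0.60 in IN5 and 0.17 in the others. Gabrg3, a GABA-A receptor subunit, stood at 244, 722, 868 and 937 CPM, against 610.3, 930.2, 907 and 800.4 CPM in the other inhibitory neurons. Glra2, the glycine receptor subunit of the immature brain, stood at 87, 145, 101 and 30.6 CPM and was the 1 that fell, while Glra1 had a log2 ratio of 0.79.

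The 3 largest rises between E19 and P4 were in Ttr, Gm28928 and Samd4. Ttr, the transport protein of choroid plexus epithelium, stood at 0, 116, 0.861 and 0.875 CPM in IN5 and at 0, 94.1, 0.605 and 1.08 CPM in the other inhibitory neurons. Gm28928, a long non-coding transcript, stood at 8.42, 224, 546 and 1013 CPM against 64.9, 184, 370.0 and 851 CPM, and had 3 UMIs in IN5 at E19. Samd4, an RNA-binding repressor of translation, stood at 16.8, 158, 158 and 168 CPM against 118, 169.8, 195 and 191 CPM. The 3 largest falls in that step were Cldn34c1, a claudin-like gene, Rprm and Ftl1, the ferritin light chain.

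Between P4 and P8, Prex2, a regulator of Rac signalling, stood at 46.1 and 136 CPM, and Tacc1, a centrosomal protein, at 50.5 and 122 CPM. Nr2f2, the nuclear receptor COUP-TFII, stood at 98.2, 112, 22.4 and 24.5 CPM over the 4 stages. The related gene Nr2f1 stood at 166, 134, 61.1 and 37.6 CPM and was above the other inhibitory neurons in each library. Between P8 and P21 the leading rises included Aifm3 and Gm13629. Aifm3, related to mitochondrial apoptosis-inducing factor, stood at 0, 4.39, 7.75 and 164 CPM. It was at least 19.5-fold higher at P21 than the limit for 0 counts at E19, which is 8.42 CPM.

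The 7 oligodendrocyte markers together stood at 81.4, 48.3, 63.7 and 419 CPM in IN5, at 68.0 to 356 CPM in the other inhibitory neurons and at 60.3 to 287 CPM in excitatory neurons. Mobp and Ermn, markers of myelin, had 0 UMIs in IN5 at E19, P4 and P8. The marker sum was highest at P21 in all 3 populations, and its part in the other P21 values was not tested.

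**Figure D4:**
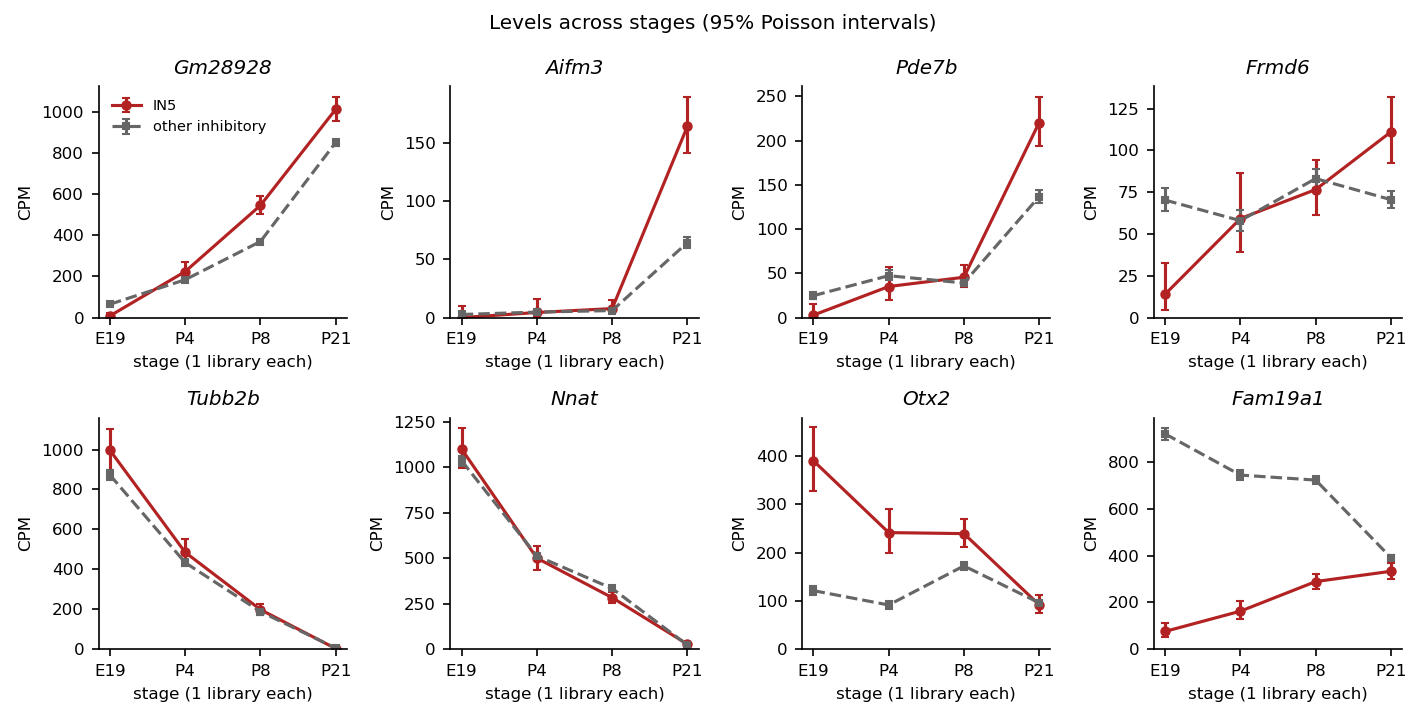
Level in CPM (vertical axis) at each stage (horizontal axis, 1 library each) of 8 genes in IN5 (red circles) and in the other inhibitory neurons (grey squares), with 95% Poisson intervals. Tubb2b and Nnat followed one course in both, while Otx2 and Fam19a1 started far apart and were closer at P21.

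Stage courses that differed between IN5 and other inhibitory neurons were sought as the difference of their log2 ratios over the whole span, E19 to P21. Of 2570 genes of 100 CPM or more, 94 (3.66%) had a difference of 1 or more and 38 (1.48%) of -1 or less. With 1 library per stage the difference was not tested. Fam19a1, which encodes a secreted chemokine-like protein, led the first group. It stood at 75.8, 162, 289 and 333 CPM in IN5 and at 922, 745, 724 and 392 CPM in the others. Fstl4, a follistatin-related secreted protein, stood at 5.61, 21.9, 34.4 and 91.9 CPM in IN5 against 288, 246, 455 and 399 CPM, a deficit that narrowed from a log2 ratio of -4.79 to -2.06.

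Pde7b, a cyclic AMP phosphodiesterase, stood at 2.81, 35.1, 45.6 and 220.4 CPM in IN5 against 24.8, 47.4, 39.1 and 137 CPM, and its E19 value rests on 1 UMI. Frmd6, a FERM domain protein of Hippo signalling, stood at 14.03, 59.3, 76.6 and 111 CPM against 70.3, 57.99, 83.2 and 70.6 CPM. IN5 was below the other inhibitory neurons in both genes at E19 and above them at P21.

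Otx2, the homeodomain factor that patterns forebrain and midbrain, and its antisense transcript Otx2os1 took the opposite course. Otx2 stood at 390.1, 241, 239 and 91.9 CPM in IN5 against 121, 91.4, 172 and 95.97 CPM in the others. The fall of Otx2 was not particular to IN5. IN7 stood above IN5 in each library, at 546, 311, 282 and 110 CPM. IN12 stood at 401, 311, 257 and 162 CPM, and IN11 at 293, 181, 164 and 68.2 CPM. Otx2os1 stood at 5066, 4356, 3689.9 and 1125 CPM against 1230.3, 1236, 2115 and 964 CPM. The pair overlap on opposite strands, and whether counting used strand is not given in the sources used here. If it did not, UMIs of the overlap cannot be told apart. Otx2 was also fixed as a marker of epithelial and ependymal cells, and it held 139, 110, 278 and 105 of the 139, 164, 282 and 108 UMIs of the 6 markers of that list in IN5. The other 5 markers (Ttr, Folr1, Kcnj13, Foxj1 and Ccdc153) had 0 UMIs at E19, and Ttr held 0, 53, 1 and 1. Foxj1 and Ccdc153 had 0 in each library. The part of such cells in the Otx2 values was not tested.

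Rprm, which encodes reprimo, a regulator of the cell cycle, was higher in IN5 than in any of the other 11 subtypes at E19, P4 and P8. It stood at 138, 37.3, 33.6 and 1.75 CPM against 18.02, 9.27, 4.23 and 0.0984 CPM in the others, and the IN5 values rest on 49, 17, 39 and 2 UMIs, too few at P21 to order the subtypes. Adcy8 stood at 881, 889, 954 and 481 CPM in IN5 against 219, 277, 602 and 542 CPM. Rtn4rl1, a receptor for inhibitors of axon growth, stood at 123, 98.8, 77.5 and 70.9 CPM against 49.4, 58.2, 82.9 and 108 CPM. For Adcy8 and Rtn4rl1, IN5 was above the other inhibitory neurons at E19 and below them at P21.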

How the data were processed

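Nuclei of the superior colliculus were sequenced with droplet 3' chemistry in 1 library per stage, with a target of 2000 nuclei each, per the labels' protocols. The deposited matrix holds whole-number UMI counts of 31053 genes in 9724 nuclei, which the authors made with Cell Ranger 3.0.2 against an mm10 pre-mRNA reference, per the labels. The deposited table of nuclei gives stage, class, subtype, cluster and reference labels, with the percent of mitochondrial and ribosomal UMIs as the authors computed them, and its largest mitochondrial value was 5. The sources used here do not say how nuclei were filtered, how doublets were treated or whether counting used strand, and 4 columns of that table were not used. The stage was taken as E19 from the sample's title and stage label, while the series text gives E10.

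Counts were summed per library over the IN5 nuclei and over the other 11 inhibitory subtypes, and scaled to CPM. A gene was called higher or lower where the log2 ratio, with 5 CPM added, passed 1 or -1 in every library at a mean of 20 CPM. The 12 highest and 8 lowest genes at 100 CPM were named, with the 3 largest rises and falls per stage step, up to 3 genes on each side and 2 rises and falls in each of 23 lists, the 5 on each side against the most alike subtypes, and the 5 on each side of the difference in stage course. Genes named among the clusters and against IN7, and the genes lowest or highest of the 12 subtypes, were chosen after their values were seen. Mitochondrial, ribosomal, haemoglobin and sex-linked genes were left out of the ranking. Some genes that these rules name are not reported here. Each library has 1 pool of animals, so no test was run. The members, lists and rules were chosen with earlier results of these data known.

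Intervals are exact Poisson for CPM, exact Clopper-Pearson for shares and exact conditional for ratios, and cover counting error only. Gene positions are from the GENCODE annotation of GRCm38, which holds 31011 of the identifiers. The calculation was tested on simulated data. Python 3.11.15, numpy 2.4.6, pandas 2.3.3, scipy 1.17.1, matplotlib 3.10.9 and R 4.3.3 were used, with edgeR 4.0.16 and DESeq2 1.42.0 for alternative scaling factors alone. Alternatives changed the scaling, the added CPM, the floor, the weighting, the depth and the nuclei or libraries included.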

Additional observations from a re-analysis of the deposited data

Results flagged for a closer look

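Fam19a1 moved in opposite directions over the 4 stages. Its log2 ratio of P21 to E19 was 2.07 in IN5 and -1.22 in the other inhibitory neurons. Each direction rests on 1 library per stage, and the difference was not tested.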

How the results depend on the processing

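No paired test was run, and no result comes from a test: the subtype was drawn from the same counts, and each stage had 1 library. Ratios of IN5 to the other inhibitory neurons were formed within each library, and so were paired by library. Of 15 higher and 79 lower genes, 9 and 45 were called with 20 CPM added, and 8 and 42 at a floor of 100 CPM. Leaving out 1 library gave 18 to 26 higher genes (26 without P21) and 86 to 105 lower. Of the 15 higher and 79 lower genes, 11 and 63 were still called with the other subtypes weighted alike, and 9 and 60 with nuclei thinned to 2000 UMIs. The stage counts of 749, 282 and 675 genes past the fold, in order of step, became 221, 29 and 277 with 20 CPM added, 1763, 694 and 1166 with no floor, 109, 26 and 178 at a floor of 100 CPM, and 2369, 1754 and 1887 with nuclei thinned to 2000 UMIs. Without nuclei holding a Slc17a6 or Slc17a7 UMI, the step between P4 and P8 gave 459. By construction, adding more CPM shrinks log2 ratios, the floor sets how many genes are counted, and a rule over fewer libraries is less strict. Thinning leaves fewer UMIs, and the cause of the remaining changes was not tested. As shares of all neurons, IN5 made up 2.69%, 3.19%, 6.19% and 5.70%. The likeness of IN5 to IN1 was 0.900 by Spearman, 0.883 at a floor of 100 CPM and 0.835 at equal totals. For IN2 it was 0.862 at the floor of 100 CPM and 0.832 at equal totals, and for IN7 0.848 at equal totals. The median variance to mean ratio among IN5 nuclei was 1.03 at 2000 UMIs and 0.975 at 1000. Of the values of single genes, 444 moved by less than their spread and 28 by more, and none reversed. The spread was the SD over the 4 libraries for ratios to the other inhibitory neurons, and for changes between stages counting error, or a log2 value of 1 where a count was 0. The 444 include values that could not pass this limit. The floor does not enter a gene's ratio, which fixed 38 values with no floor and 38 at a floor of 100 CPM. Leaving out 1 library cannot shift the mean of 4 by more than their SD, which fixed 20 values per library. The genes were chosen for large differences, so a reversal was unlikely by construction. Of the main values, 43 stayed within their limits and 29 moved past them, which are those given above. Depth limits genes of few UMIs, since 3 counts in IN5 were 8.42 CPM at E19 and 2.62 CPM at P21.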

Other observations

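The deposited table also carries 2 sets of labels that the authors transferred from reference data. Such labels are assigned from the RNA counts of the same nuclei, so gene levels by label are a description. Of the 324 nuclei, 224 had the Vectorseq label 18, and these were 97.0% of the 231 nuclei with that label. A further 87 had label 8, which 286 nuclei held in all. The split by label crossed the split by cluster: label 18 was held by 99 nuclei of cluster 3 and 122 of cluster 8, and label 8 by 68 and 19. From the youngest to the oldest library, label 18 was held by 35, 44, 87 and 58 IN5 nuclei and label 8 by 22, 17, 28 and 20. In IN5 nuclei with label 18, Glra1 stood at 209.9, 238, 340.3 and 288 CPM, against 59.4, 115, 81.9 and 179 CPM in those with label 8. Olfm3 stood at 1459, 1622, 1439 and 1446 CPM against 1300.5, 855, 509 and 748 CPM. Nxph1 stood at 514, 678, 792 and 598 CPM against 158, 83.99, 74.7 and 42.5 CPM. Nrp2 stood at 420, 668, 619 and 313 CPM against 198, 244, 214 and 130.4 CPM, although Nxph1 and Nrp2 mark opposite clusters. These 4 genes were higher with label 18 in each library, as were Fat4 and Otx2. Ptprm lay the other way, at 1396, 969, 1574 and 1370 CPM with label 18 and 1743, 1710, 1940 and 1440 CPM with label 8. Pax7 also had the higher value with label 8 at all stages but P8. IN5 as a whole held 7 Pax7 UMIs in each library, too few to order the labels. In the Transseq set, 195 nuclei (60.2%) had the label ISC5, 96 had ESC2 and 32 had ESC1. In the other 11 subtypes ISC5 took 36.1% (IN1) to 85.9% (IN3), so this mix was not particular to IN5.

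Among IN5 nuclei thinned to 2000 UMIs, the 8 genes of largest variance to mean ratio, out of 3776, were Tenm3 (10.8, mean over libraries), Tenm2 (7.66), Lsamp (7.06), Col25a1 (6.27), Zfp804b (5.28), Lrrc4c (4.98), Lrrtm4 (4.92) and Grik1 (4.23). The teneurins Tenm2 and Tenm3 are adhesion proteins that match synaptic partners. The variance to mean ratio of Tenm3 was 21.4, 12.4, 6.07 and 3.39 from the youngest to the oldest library, while its mean was 9.82, 5.90, 8.02 and 4.93 UMIs. Col25a1 and Grik1 were also among the leading genes of cluster 3, and Tenm3 averaged 2619 CPM in cluster 3 and 4201 CPM in cluster 8.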
